A study of Mus musculus with 6 samples.

Results

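Peripheral myelin genes were examined together with Egr2 in ipsilateral dorsal root ganglia (DRG) of mice with a lateral ankle sprain. The genes are Mbp, Pmp22, Mag, Prx, Mal, Ncmap, Pllp and Egr2, taken by symbol from the deposited table of expression values. All 8 of 8 listed genes were found among its 22064 gene rows, and all 8 passed the filter on low values described below. The LAS group had the anterior talofibular and calcaneal fibular ligaments of the right ankle cut through a small skin incision. The sham group had the incision at the same site with both ligaments left whole. Both groups were wild-type C57BL/6 mice, 6 to 8 weeks old, and the L3-5 ganglia of the operated side were taken on day 14 after saline perfusion. The study used male and female mice. There were 3 libraries per group, and neither the sex of the animals in each library nor how many were pooled is stated. The p-values therefore cover only how these 6 libraries vary, which may in part be technical.

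Myelin of peripheral nerve is made by Schwann cells, which wrap the large axons that leave the ganglion. Egr2, also called Krox20, is the zinc finger transcription factor that turns on and maintains the myelin program in these cells, together with the glial factor Sox10. Its targets encode proteins of compact myelin, of the uncompacted membrane beside it and of the lipid rafts that carry myelin lipids to the surface. A whole ganglion also holds sensory neurons, satellite glia and non-myelinating Schwann cells, and in such bulk samples fewer cells of a type and less RNA per cell cannot be told apart.

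The stretches before the transcription start of 3 of the genes are shown because Egr2 is the regulator and the other genes varied together, as described below. They are RefSeq sequences of build GRCm38.p6, matched by gene ID, and 7 of the 8 genes had an entry; Mbp had none. Each is the 250 bases before the start that lies farthest upstream, in the direction of transcription, and capitals mark a searched motif. The letters searched were GTGGGCG, the core of the site bound by EGR factors, the longer GCGTGGGCG, which contains that core, and ACAAAG and ACAATG, which SOX factors bind, all on both strands.
Egr2, chr10:67535249-67535498, plus strand: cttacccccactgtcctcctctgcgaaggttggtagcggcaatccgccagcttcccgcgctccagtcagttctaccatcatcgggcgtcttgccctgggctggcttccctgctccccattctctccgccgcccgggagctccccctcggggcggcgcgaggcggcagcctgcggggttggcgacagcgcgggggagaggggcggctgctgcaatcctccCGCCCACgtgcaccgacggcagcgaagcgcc
Mag, chr7:30914923-30915172, minus strand: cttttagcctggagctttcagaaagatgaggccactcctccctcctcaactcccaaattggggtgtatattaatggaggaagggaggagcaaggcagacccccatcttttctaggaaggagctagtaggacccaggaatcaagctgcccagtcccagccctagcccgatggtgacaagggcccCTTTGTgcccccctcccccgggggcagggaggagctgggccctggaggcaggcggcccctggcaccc
Prx, chr7:27499074-27499323, plus strand: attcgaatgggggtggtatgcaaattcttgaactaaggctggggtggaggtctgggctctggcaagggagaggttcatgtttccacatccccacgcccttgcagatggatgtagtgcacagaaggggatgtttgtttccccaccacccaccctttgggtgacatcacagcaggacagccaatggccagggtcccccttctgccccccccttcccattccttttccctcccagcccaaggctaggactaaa
The Egr2 window held the EGR core once, read on the opposite strand as CGCCCAC, at bases -31 to -25 before that start. RefSeq lists 5 starts for Egr2, and the windows before the other 4 held none of the 4 motifs. The Mag window held ACAAAG once, read on the opposite strand as CTTTGT, at bases -67 to -62, and the same letters lie at -126 to -121 before the second of its 3 starts. The windows farthest upstream of the other 5 genes, Prx among them, held no match. Of 32851 windows of this length, 7.02% held GTGGGCG, 0.536% GCGTGGGCG, 16.5% ACAAAG and 10.7% ACAATG.

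Values are FPKM, read numbers scaled to transcript length and to library depth by the authors, so levels of different genes are per length. FPKM are not counts, so no counting interval is given, and low genes are less reliable than abundant ones. LAS and sham were compared on log2(FPKM + 0.1) with limma over the 14006 genes that reached 0.5 FPKM in 3 or more of the 6 libraries. Fold changes on this scale are LAS over sham and understate the change of low genes. A gene was called at an adjusted p of at most 0.05 (Benjamini-Hochberg, over all tested genes) with a fold of at least 1.5. No gene was called higher (0% of those tested) or lower (0%), and 495 genes had an unadjusted p of at most 0.05. Without sham replicate 3 there were 1425 such genes and again 0 called, and over the 20 alternatives between 288 (without LAS replicate 3) and 1626 (without both sham replicate 3 and LAS replicate 2). Sham replicate 3 differed most from the others, with a mean correlation of 0.969 with them against 0.984 to 0.986 for the rest. It held the highest level of 33.4% of tested genes, among them all 15 tested neutrophil and bone marrow genes and all 14 tested skeletal muscle genes, but of 0 of the 8 genes studied here.

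Egr2 RNA was lower in LAS than in sham ganglia, by 45.7% of the sham mean, while the LAS and sham levels of each of the 7 myelin genes overlapped. Egr2 was at 6.86, 8.95 and 9.05 FPKM in LAS, against 14.6, 16.1 and 15.1 FPKM in the sham libraries. Every LAS library lay below every sham library, and the gap between the groups exceeded the range within either. Mean levels were 8.29 ± 1.24 FPKM in LAS and 15.3 ± 0.798 FPKM in sham libraries (SD, n = 3 each). On the log2 scale the difference was -0.88 (standard error 0.12, interval at 95% from -1.16 to -0.61 before adjustment), which is a level 1.84-fold lower in LAS. Its unadjusted p ranked 2 among the 14006 genes, after Hes5, and the gene did not pass after adjustment (adjusted p = 0.862 from limma). Of the tested genes, 3.81% lay lower in every LAS library than in every sham library and 1.31% were lower at an unadjusted p of at most 0.05, against 2.22% higher. Of the 8 genes, Egr2 alone was in these classes, and 0 lay higher in every LAS library, as 5.89% of tested genes did.

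The size of the Egr2 difference varied little with the libraries kept, while its rank varied more. With sham replicate 3 left out limma gave -0.89 (adjusted p = 0.201 from limma) and its p ranked 17. It ranked 7 without sham replicate 2 and 46 without both sham replicate 3 and LAS replicate 2. Without LAS replicate 1, the lowest library, the log2 fold change was -0.75 (adjusted p = 0.938 from limma) and the rank 1. Over all 20 alternatives the log2 fold change lay between -0.95 and -0.75, with an adjusted p from 0.0947 to 1.00.

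**Figure D1:**
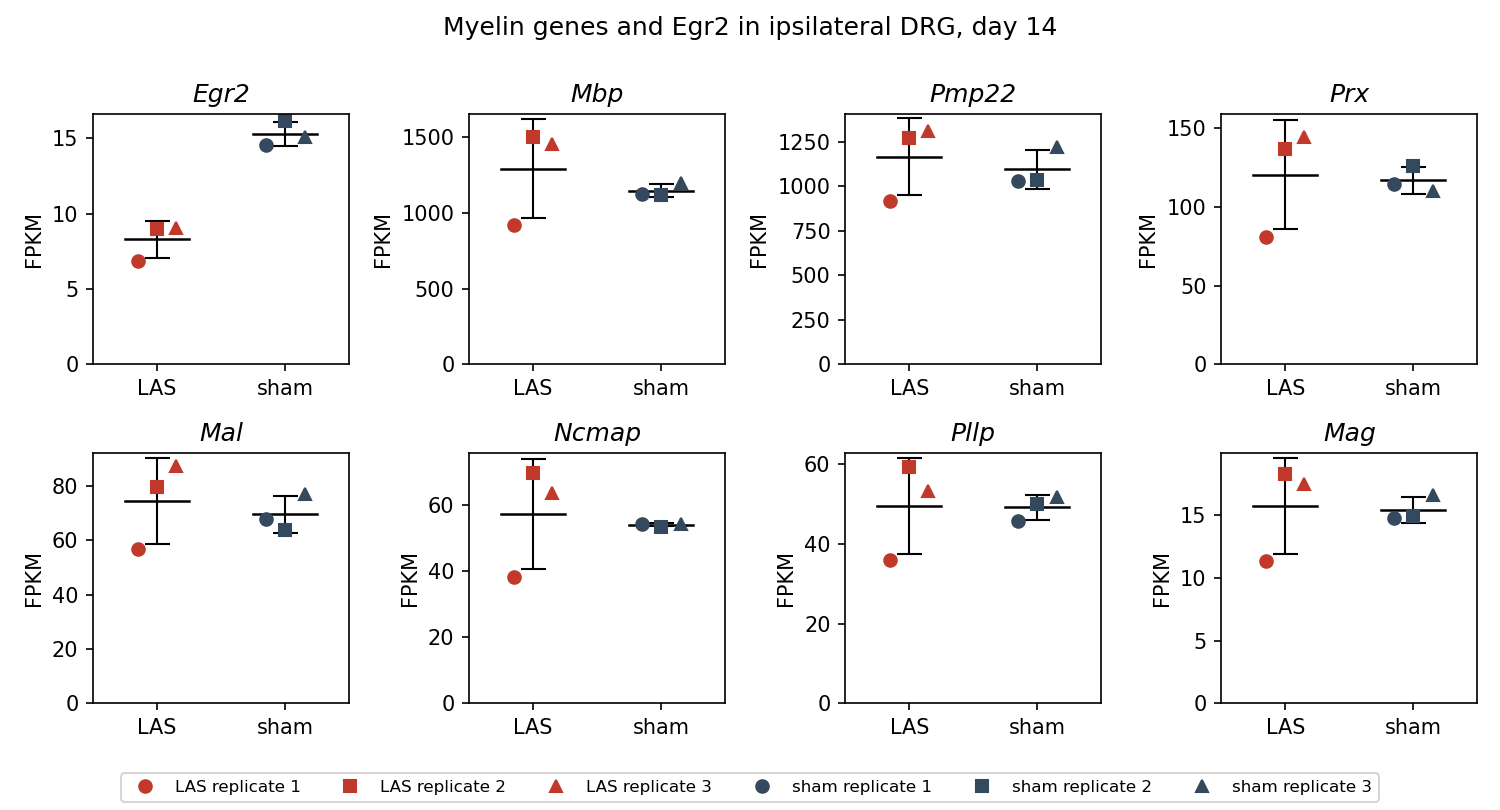
FPKM of Egr2 and the 7 myelin genes in the LAS (left) and sham (right) libraries of each panel, with a point per library, the mean as a line and the SD as a bar (n = 3 each); each vertical axis starts at 0. The Egr2 points of LAS (6.86 to 9.05) all lie below those of sham (14.6 to 16.1), and in every other panel the LAS points straddle the sham points.

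Mbp and Pmp22, which encode proteins of compact myelin, were the most abundant of the 8 genes. Mbp, which encodes myelin basic protein, the glue between the inner membrane faces, was at 920.3, 1505 and 1455 FPKM in LAS, against 1124, 1119.8 and 1199.7 FPKM in the sham libraries. Mean levels were 1293 ± 324 FPKM in LAS and 1148 ± 45.1 FPKM in sham libraries (SD, n = 3 each). LAS replicate 1 was the lowest library and LAS replicates 2 and 3 were the highest, so the sham values lay inside the LAS range. For Mbp limma gave a log2 fold change of 0.14 with a standard error of 0.19 (adjusted p = 1.00). Pmp22, whose gene dosage sets myelin stability and is altered in human hereditary neuropathy, was at 919, 1268 and 1309 FPKM in LAS, against 1029, 1035 and 1219 FPKM in sham libraries. The groups overlapped in the same way, and limma gave 0.08 with a standard error of 0.15 (adjusted p = 1.00).

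Prx and Mag act outside compact myelin. Prx, periaxin, which links the outer Schwann cell membrane to the basal lamina through a dystroglycan complex, was at 81.0, 137 and 144 FPKM in LAS, against 115, 126 and 110.1 FPKM in sham libraries. LAS replicate 1 was again the lowest, 30.8% below the sham mean, and LAS replicate 3 was 23.4% above it. For Prx limma gave a log2 fold change of 0.00 with a standard error of 0.21 (adjusted p = 1.00). Mag, an adhesion molecule of the membrane that faces the axon, was the lowest of the 7 myelin genes at 11.3, 18.3 and 17.5 FPKM in LAS, against 14.8, 14.9 and 16.6 FPKM in sham libraries. The groups overlapped again, and limma gave -0.00 with a standard error of 0.18 (interval at 95% from -0.42 to 0.42 before adjustment, adjusted p = 1.00).

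Mal, Pllp and Ncmap encode small membrane proteins of myelin. Mal, a proteolipid of membrane rafts, was at 56.8, 79.5 and 87.3 FPKM in LAS, against 67.7, 63.8 and 77.1 FPKM in sham libraries. Pllp, plasmolipin, a raft protein related to Mal, was at 36.0, 59.2 and 53.2 FPKM in LAS, against 45.7, 50.1 and 51.6 FPKM in sham libraries. Ncmap, a protein of uncompacted Schwann cell membrane, was at 38.3, 69.7 and 63.7 FPKM in LAS, against 54.2, 53.4 and 54.3 FPKM in sham libraries. In all 3 the sham values lay inside the LAS range. The log2 fold changes were 0.08 for Mal (standard error 0.16), -0.02 for Pllp (standard error 0.17) and 0.04 for Ncmap (standard error 0.21), each with an adjusted p of 1.00 from limma. On the opposite strand, GENCODE release M21 lists a transcript that overlaps exons of Prx and another that overlaps exons of Pllp, and whether reads were counted by strand is not given in the sources used here.

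Over the 7 myelin genes 5 had a log2 fold change above 0 and 2 below 0, with a median of 0.04, against 0.00 over all tested genes. With Egr2 the median of the 8 was 0.02. The intervals at 95% of the 7 reached from as low as -0.50 (Prx) to as high as 0.58 (Mbp) before adjustment, so a single gene may differ by as much as these bounds allow. The direction depended on which LAS library was kept. Without LAS replicate 1 all 7 were higher in LAS (median log2 fold change 0.27), and without LAS replicate 2 the median was -0.11 with 3 of 7 higher. Without LAS replicate 3 it was -0.06 with 1 of 7 higher. None of the 8 genes was called under any of the alternatives.

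**Figure D2:**
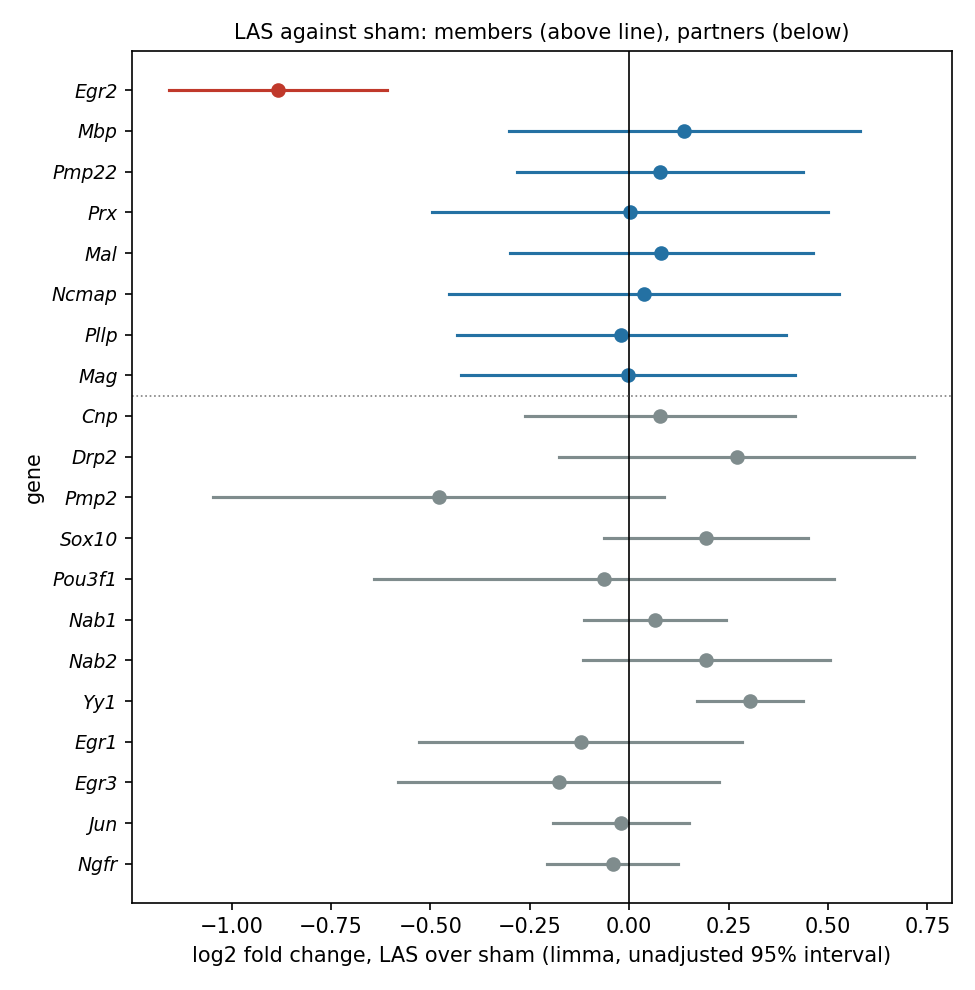
The log2 fold change of LAS over sham from limma on log2(FPKM + 0.1), with its interval at 95% before adjustment (horizontal axis), for the 8 genes (above the dotted line; Egr2 in red) and 12 myelin partners and regulators (below it). The interval of Egr2 (-1.16 to -0.61) and that of Yy1 lie on one side of 0, and those of the other genes shown cross it.

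The 7 myelin genes shared an order of libraries. All 7 were lowest in LAS replicate 1 and had LAS replicates 2 and 3 as the 2 highest libraries, an order found in 1.66% of tested genes. The order was taken from the values of these 7 genes, so that share is given as a description. LAS replicate 1 was the lowest library in 13.5% of tested genes. Relative to the sham mean, LAS replicate 1 was 16.0% (Pmp22) to 30.8% (Prx) lower, while LAS replicate 2 was 14.4% (Mal) to 31.1% (Mbp) higher and LAS replicate 3 was 8.35% (Pllp) to 26.8% (Mbp) higher. The 7 values of a library come from the same RNA, so they are not 7 separate observations of it. Egr2 was also lowest in LAS replicate 1, but LAS replicates 2 and 3 were 41.3% and 40.7% below its sham mean.

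**Figure D3:**
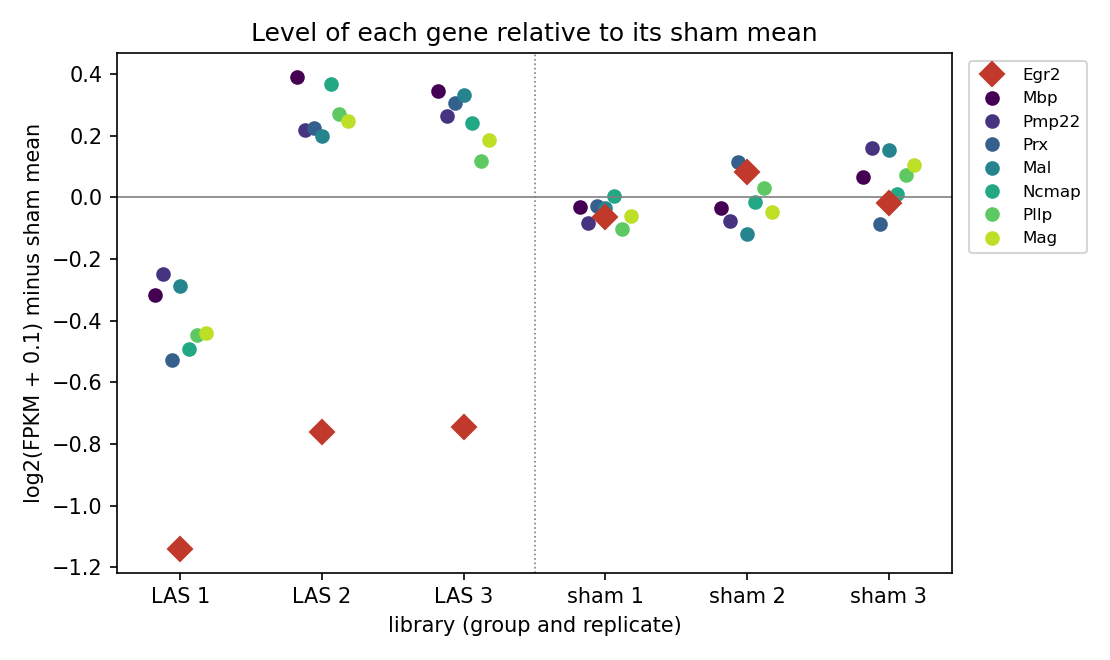
The log2(FPKM + 0.1) of each gene minus its mean over the 3 sham libraries (vertical axis) in each of the 6 libraries (horizontal axis), with circles for the 7 myelin genes and diamonds for Egr2. The circles lie below 0 in LAS replicate 1 and above 0 in LAS replicates 2 and 3, while the diamonds lie below 0 in all 3 LAS libraries.

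The spread of the myelin genes was therefore wide among LAS and narrow among sham libraries. The SD of the log2 level was 0.28 to 0.46 over the 3 LAS libraries and 0.01 to 0.14 over the 3 sham libraries. In all 7 genes the SD in LAS was at least 2 times that in sham, as in 12.6% of tested genes. Across tested genes the balance was the other way, with a median SD of 0.09 in LAS and 0.13 in sham libraries. Ncmap showed the widest contrast, with a coefficient of variation of 29.1% in LAS and 0.893% in sham libraries. With 3 libraries per group each SD is itself imprecise.

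**Figure D4:**
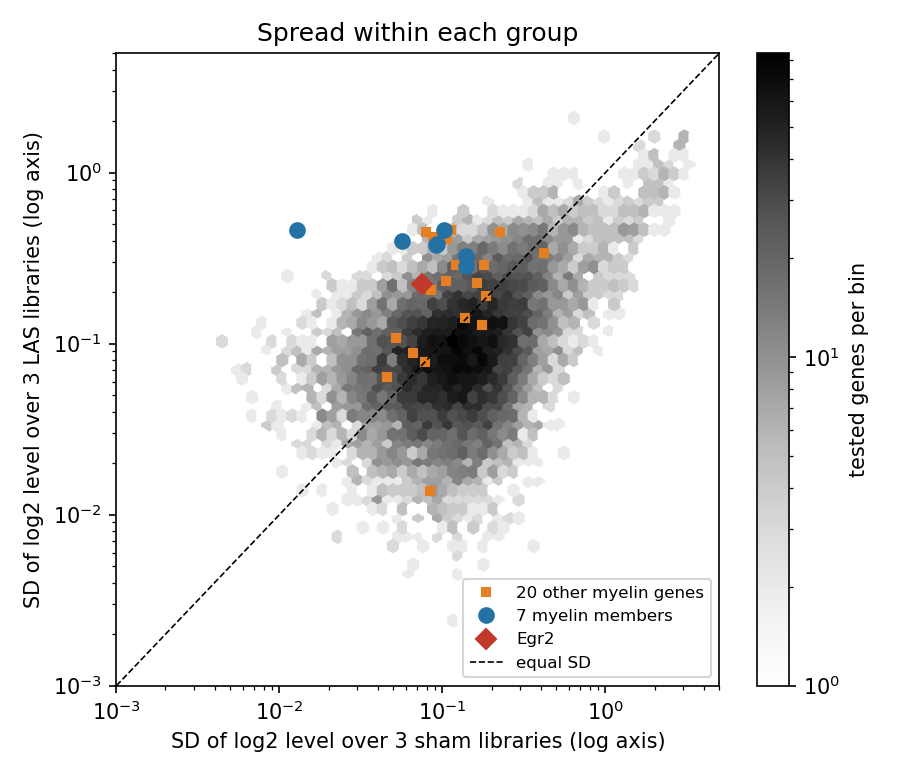
The SD of log2(FPKM + 0.1) over the 3 LAS libraries (vertical, log axis) against that over the 3 sham libraries (horizontal, log axis), with grey bins for tested genes, blue circles for the 7 myelin genes, a red diamond for Egr2 and orange squares for 20 other myelin genes. The blue circles (0.28 to 0.46 in LAS, 0.01 to 0.14 in sham) lie above the dashed line of equal SD.

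Because scaling of a library moves all its genes together, Egr2 was also expressed relative to the myelin genes within each library. The mean log2 level of the 7 was 6.54, 7.21 and 7.19 in the LAS libraries, against 6.89, 6.92 and 7.01 in the sham libraries. The LAS values lay on either side of the sham values, and the means were 6.98 ± 0.38 in LAS and 6.94 ± 0.06 in sham libraries (SD, n = 3 each; exact two-sided permutation p = 1). The log2 level of Egr2 minus that mean was -3.75, -4.03 and -4.00 in the LAS libraries, against -3.02, -2.90 and -3.09 in the sham libraries. The groups did not overlap, and the difference was -0.93 (exact two-sided permutation p = 0.1, n = 3 each, the smallest that 3 against 3 allows). Against the single genes the difference ranged from -0.86 (Pllp) to -1.02 (Mbp), and against Sox10 it was -1.08. When each library was left out in turn, the difference from the mean of the 7 lay between -1.02 and -0.87.

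**Figure D5:**
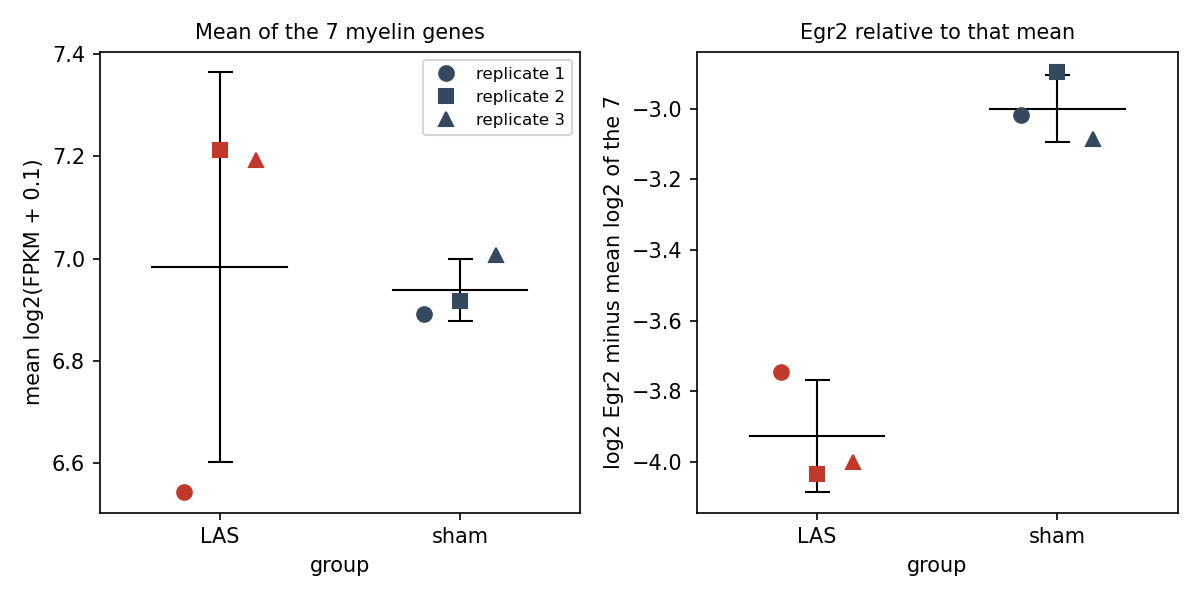
The left panel plots the mean log2(FPKM + 0.1) of the 7 myelin genes and the right panel the log2 level of Egr2 minus that mean, for the LAS and sham libraries, with a point per library, the mean as a line and the SD as a bar (n = 3 each). The groups overlap in the left panel (6.54 to 7.21 in LAS, 6.89 to 7.01 in sham) and do not in the right (-4.03 to -3.75 in LAS, -3.09 to -2.90 in sham).

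Some other genes of the myelin sheath shared the order of libraries seen in the 7. A list of 20 such genes had 10 above and 10 below 0 with a median log2 fold change of 0.02, and 0 were called in either direction. In 1 of the 20, Tspan2 (named after its values were seen), every LAS library lay above every sham library, and in 0 below. Over all tested genes these shares were 5.89% above and 3.81% below. In 6 of the 20, among them Cnp, Cldn19, Drp2, Fa2h and Ugt8a, LAS replicate 1 was the lowest and LAS replicates 2 and 3 were the highest libraries, and in 10 of the 20 the SD in LAS was at least 2 times that in sham. Cldn19, Fa2h and Ugt8a are named after their values were seen. Cnp, an enzyme of myelin cytoplasm, was at 67.6, 96.4 and 94.8 FPKM in LAS, against 73.3, 84.3 and 85.2 FPKM in sham libraries. Drp2, the partner of periaxin in the dystroglycan complex, had the largest positive value, a log2 fold change of 0.27 (standard error 0.19), and Pmp2, a lipid-binding protein of myelin, the largest negative one, -0.48 (standard error 0.24). Cd9, a tetraspanin found in many cell types, was at 591 ± 36.4 FPKM in LAS and 591 ± 27.0 FPKM in sham libraries (SD, n = 3 each).

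Of 29 regulators of the myelin program 19 were above and 10 below 0, with a median log2 fold change of 0.06 and 0 called. In 2 of the 29, Yy1 and Yap1 (the second named after its values were seen), every LAS library lay above every sham library, and in 0 below. Sox10, which acts with Egr2 on myelin genes, was at 63.6, 85.0 and 80.9 FPKM in LAS, against 64.7, 66.1 and 68.2 FPKM in sham libraries. It had the same order of libraries as the myelin genes (log2 fold change 0.19, standard error 0.11, adjusted p = 1.00 from limma). Pou3f1, the factor that precedes Egr2 in Schwann cell development, was at 1.74, 2.85 and 3.58 FPKM in LAS, against 2.62, 2.59 and 3.01 FPKM in sham libraries. Nab1 and Nab2, which bind EGR factors and modulate them, had log2 fold changes of 0.06 (standard error 0.08) and 0.19 (standard error 0.13). Yy1, a zinc finger factor needed for Egr2 induction in mouse Schwann cells, was at 14.1, 14.9 and 14.1 FPKM in LAS, against 11.6, 11.4 and 11.8 FPKM in sham libraries. Each of its LAS values lay above each sham value, as in 5.89% of tested genes, but it did not pass after adjustment (log2 fold change 0.30, standard error 0.06, adjusted p = 1.00 from limma). Srebf2, a regulator of cholesterol synthesis, and Nfatc4, a calcium-responsive factor at 0.87 ± 0.23 FPKM in LAS and 0.65 ± 0.08 FPKM in sham libraries (SD, n = 3 each), had log2 fold changes of -0.07 and 0.36, and neither was called.

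The related EGR genes did not share the separation seen for Egr2. Egr1, an immediate early gene of many cell types, was at 6.12, 6.40 and 4.81 FPKM in LAS, against 7.88, 5.85 and 5.29 FPKM in sham libraries. Egr3 was at 2.14, 1.64 and 2.00 FPKM in LAS, against 2.66, 2.11 and 1.84 FPKM in sham libraries. Both overlapped between the groups, with log2 fold changes of -0.12 (standard error 0.17) for Egr1 and -0.18 (standard error 0.17) for Egr3. Whether Egr2 differs from them in its change was not tested.

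Genes of immature and repair Schwann cells, which rise when myelin is lost after nerve injury, were not called. Of 22 listed genes 17 were tested, with 7 above and 10 below 0 and a median log2 fold change of -0.03. In 3 of the 17 every LAS library lay above every sham library, against 5.89% of tested genes, and in 0 below. These were Id4, Notch1 and Bdnf, named after their values were seen, with log2 fold changes of 0.17, 0.18 and 0.27 and adjusted p = 1.00 each from limma. Jun, the factor that drives the repair state, was at 49.8, 44.5 and 52.0 FPKM in LAS, against 51.1, 49.9 and 47.2 FPKM in sham libraries. Ngfr, the p75 neurotrophin receptor of repair Schwann cells and of neurons, was at 255 ± 3.90 FPKM in LAS and 263 ± 19.4 FPKM in sham libraries (SD, n = 3 each), and L1cam, an adhesion molecule, had a log2 fold change of -0.08. Gfap, a glial filament, had the largest negative value on a low level (log2 fold change -0.82, standard error 0.41, adjusted p = 1.00 from limma), and Sox11, a factor of immature cells, the largest positive one at 0.29. Of 19 genes of the node of Ranvier and the paranode, where myelin meets the axon, 10 were above and 9 below 0, with a median of 0.00 and 0 called, and the groups overlapped in all 19. Epb41l3, a scaffold of the paranode, was at 300.2 ± 4.48 FPKM in LAS and 299 ± 18.2 FPKM in sham libraries, and Cadm3, an axonal adhesion molecule, at 179 ± 0.578 FPKM in LAS and 180 ± 19.0 FPKM in sham libraries (SD, n = 3 each). The largest values were -0.16 for Gldn, gliomedin, which gathers sodium channels at nodes, and 0.12 for Cadm2.

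Defining markers of the ganglion were present, and some oligodendrocyte markers were near 0. Mog, Opalin and Olig2, which mark oligodendrocytes of the central nervous system, were at most 0.27, 0.02 and 0.09 FPKM in any library. Over the 6 libraries Myrf was at 1.02 to 1.6 FPKM, Ppp1r14a at 0.94 to 1.58 FPKM and Cldn11 at 4.67 to 11.65 FPKM. Of the 14 listed oligodendrocyte genes 7 passed the filter. Of those 7, 3 were above and 4 below 0, with a median log2 fold change of -0.04 and 0 called. Cldn11 and Sox8, which are not limited to oligodendrocytes, had the largest values, 0.29 and 0.28, and Anln was at 3.19 ± 0.164 FPKM in LAS and 3.30 ± 0.250 FPKM in sham libraries (SD, n = 3 each). The neuronal list was not lowest in LAS replicate 1. The summed level of 15 neuronal genes was 13122, 12512 and 13104 FPKM in LAS, against 13063, 12696 and 13025 FPKM in sham libraries, with 8 above and 7 below 0, a median log2 fold change of 0.00 and 0 called. Uchl1 and Nefl, the most abundant of them, had log2 fold changes of -0.02 and 0.01, and Isl1 and Pou4f1, which had the largest, 0.12 and 0.07. The list of 15 Schwann cell and shared glial genes summed to 2785, 3947 and 4015 FPKM in LAS, against 3435, 3275 and 3582 FPKM in sham libraries. Of these 9 were above and 6 below 0, with a median of 0.06. S100b, a calcium-binding protein of all Schwann cells and satellite glia, was at 409, 378 and 408 FPKM in LAS, against 397, 366 and 454 FPKM in sham libraries, so it was not low in LAS replicate 1. Foxd3 and Fxyd3 had the largest values of that list, -0.21 and -0.26, and 0 of its genes were called.

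Marker lists of other cells were high or low in particular libraries. The 15 perineurial and endoneurial fibroblast genes summed to 350.4, 498 and 432 FPKM in LAS, against 529, 390 and 421 FPKM in sham libraries, so LAS replicate 1 was the lowest there too. In this list 7 were above and 8 below 0, with a median log2 fold change of -0.02. Dcn, the matrix proteoglycan decorin, was at 240.2, 343 and 294 FPKM in LAS, against 371, 264 and 259 FPKM in sham libraries. Col1a1, a collagen, and Cldn1, a tight junction protein, had the largest values, -0.55 and 0.46. The 14 leptomeningeal genes summed to 314, 1207 and 245 FPKM in LAS, against 218 to 291 FPKM in sham libraries, highest in LAS replicate 2. Most of that highest sum was Ptgds, at 1073 FPKM in LAS replicate 2. Of the 12 tested, 11 were above and 1 below 0, with a median log2 fold change of 0.64. In 2 of the 12 every LAS library lay above every sham library, against 5.89% of tested genes, and in 0 below. The 15 neutrophil and bone marrow genes summed to 475, 135 and 296 FPKM in LAS, against 80.5, 116 and 2341 FPKM in sham libraries, and the 15 skeletal muscle genes to 378, 174 and 116 FPKM in LAS, against 119.5, 319 and 2538 FPKM in sham libraries. Median log2 fold changes were -0.08 for the neutrophil and bone marrow genes and -1.31 for the muscle genes, and 0 genes of these 4 lists were called. Their part in the level of the myelin genes was not tested.

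Satellite glial genes, which mark the cells around neuronal bodies, summed to 2797, 2945 and 2916 FPKM in LAS, against 3078, 3005 and 3179 FPKM in sham libraries, with 11 of 14 above 0 and a median log2 fold change of 0.06. Of them, Fabp7, a fatty acid binding protein of immature and satellite glia, was lower in every LAS library, at 80.7, 68.3 and 80.8 FPKM, against 116, 121 and 156 FPKM in sham libraries (log2 fold change -0.77, standard error 0.13, adjusted p = 1.00 from limma). Apoe, the lipid carrier, was also lower in every LAS library, with a log2 fold change of -0.10. It was at 2279, 2420 and 2378 FPKM in LAS, against 2508, 2446 and 2612 FPKM in sham libraries. Apoe therefore made up most of the summed level, which says little of the other genes of the list. Hes5, a Notch target, was at 2.34, 2.58 and 2.36 FPKM in LAS, against 1.21, 1.18 and 1.23 FPKM in sham libraries. Each LAS value lay above each sham value, and its unadjusted p was the smallest of all tested genes (log2 fold change 0.95, standard error 0.11, adjusted p = 0.862 from limma). Glul had a log2 fold change of 0.07. Of the 14 genes 2 lay lower and 1 higher in every LAS library, against 3.81% and 5.89% of tested genes. None of the 14 was called.

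The genes most like the 7 in pattern were sought by Pearson correlation of log2 levels over the 6 libraries, among tested genes other than the 8. Among the 5 highest were Fyco1 (r of 0.991), Slc2a1 (0.989), Zfp707 (0.988) and Kif19a (0.988). Slc2a1, a glucose transporter, was at 27.1, 34.1 and 33.7 FPKM in LAS, against 29.9, 31.1 and 32.2 FPKM in sham libraries. Kif19a, a kinesin, was at 10.9, 16.7 and 17.1 FPKM in LAS, against 13.9, 14.8 and 15.3 FPKM in sham libraries. The genes most like Egr2 were Col27a1 (0.992), Dennd4b (0.991), Gvin1 (0.990) and Ddit4 (0.988), all lower in every LAS than in every sham library. Ddit4, which restrains mTOR signaling, was at 25.8, 27.5 and 28.7 FPKM in LAS, against 34.9, 35.3 and 36.2 FPKM in sham libraries, and Gvin1, an interferon-inducible GTPase, was at 0.22, 0.38 and 0.38 FPKM in LAS, against 1.09, 1.06 and 0.90 FPKM in sham libraries. Gvin1 was below 0.5 FPKM in every LAS library, so it passed the filter only through its sham values, and its levels are low. The correlations given are the highest of 13998 over 6 points that share their groups, and they are given as a description.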

How the data were processed

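RNA-seq of 6 DRG libraries, 3 LAS and 3 sham, was analysed. The authors sequenced them on BGISEQ-500, aligned the reads and deposited 1 FPKM value per gene and library, rounded to 2 decimals. Neither aligner nor build is stated in these sources. Columns of the authors' own comparison, deposited beside the FPKM, hold its p-value, q-value and log2 fold change and were not used. Of 22064 gene rows 2758 were blank in every library. The values summed to 398503 to 448142 FPKM per library, and FPKM carry no counts.

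Libraries were grouped by their labels. The log2(FPKM + 0.1) values were fitted with limma 3.58.1 (R 4.3.3), with a mean-variance trend, after a filter of 0.5 FPKM in 3 libraries. The fit was also run on simulated data with noise drawn independently for each gene and library. It recovered 78.4% of genes changed by a log2 of 1 and 93.8% of those changed by 2. That noise lacks shifts shared by many genes of a library, so these shares need not hold for the real libraries. Ratios within libraries were compared by an exact two-sided permutation test. Python 3.11.15, pandas 2.3.3, NumPy 2.4.6 and matplotlib 3.10.9 were used. The members and the 12 gene lists were chosen with earlier results of these data known. Named were the 8 genes, 11 partners, the 2 genes of highest level and the 2 of largest change in each list (those of bone marrow, muscle and meninges only beside a result), and the 5 genes most alike in pattern to Egr2 and to the other 7. Some genes taken by this rule are left out of the text. Alternatives covered the pseudocount, filter, scaling, variance model, library weights, a replicate block, the fold minimum and left-out libraries.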

Additional observations from a re-analysis of the deposited data

How the results depend on the processing

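Under all 20 alternatives Egr2 was lower in LAS and 0 of the 8 genes and 0 genes of 4 lists (other myelin proteins, myelin regulators, node and paranode, immature and repair Schwann cells) were called. Over all genes 0 were called when any single library was left out, and without both sham replicate 3 and LAS replicate 2 limma called 4 higher and 1 lower. The 7 myelin genes lay close to 0, and several changed sign. Prx was -0.0039 (log2 fold change) with libraries centred on their medians. Mag was 0.0033 with quantile normalization, 0.019 with libraries scaled to the same total and 0.090 with array quality weights, and Pllp was 0.0019 with the same total and 0.039 with the weights. With 1 or 2 libraries left out, Mbp ranged from 0.01 to 0.40, Pmp22 from -0.015 to 0.32, Mag from -0.13 to 0.27, Prx from -0.15 to 0.27, Mal from -0.045 to 0.34, Ncmap from -0.13 to 0.31 and Pllp from -0.16 to 0.23. The cause was not tested. Egr2 minus the mean of the 7 lay between -1.06 and -0.86 (exact permutation p from 0.1 to 0.33, the highest with 2 libraries left out).

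Deviations of same-numbered libraries from their group means correlated at -0.41, 0.24 and -0.15 (genes are not independent replicates). Of the 6 libraries 2 correlated best with their own number. With 3 libraries per group and sham replicate 3 far from the rest, this cannot exclude a pairing by replicate number. With the replicate block Egr2 was -0.88 (adjusted p = 1.00 from limma), 0 genes were called and 321 rather than 495 genes had an unadjusted p of at most 0.05. The block lowered the standard error of all 8 genes, for Egr2 from 0.116 to 0.093. FPKM carry no counts, so depth per gene is unknown, and 3 libraries per group limit the precision.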
